A study of Mus musculus with 9 samples.

Results

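Fshr, Lhcgr and Prlr encode the receptors through which granulosa cells, the somatic cells around the oocyte, sense follicle-stimulating hormone (FSH), luteinising hormone (LH) and prolactin. These 3 genes, of 21887 protein-coding genes, were chosen by name. All peaks that overlapped the gene span or the 50 kb to each side were taken as theirs, which gave 13 merged loci of the glucocorticoid receptor (GR), of 18584 in all lists.

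GR is a steroid receptor and transcription factor, and its binding was mapped by chromatin immunoprecipitation and sequencing (ChIP-seq). Granulosa cells were released by puncture of ovaries of wild-type CBA x C57BL/6 F1 mice aged 21 days, and GR was precipitated with a single antibody at both times. Every mouse was given 5 IU of eCG (equine chorionic gonadotropin), which acts like FSH and makes follicles grow. Mice of the 6 h group received 5 IU of human chorionic gonadotropin (hCG) 44 h later, which stands in for the LH surge, and were killed 6 h after it (2 GR libraries). Mice of the 0 h group were killed at 44 h without hCG (2 GR libraries). A further library, also at 0 h, mapped H3K27ac, an acetylated form of histone H3 found at promoters and enhancers in use. The other 4 of the 9 samples were not analysed here. There was no GR library of the later time without hCG, so hCG, its injection and the 6 h that passed cannot be told apart. The labels do not say whether replicates came from separate mice, so the spread between libraries may be technical.

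On the autosomes and sex chromosomes, GR peaks numbered 14746 and 10588 at 6 h, against 10116 and 9726 at 0 h, and H3K27ac peaks 37453. Read depth is unknown. Where a library has no peak, none passed the authors' limit there: the weakest peaks listed had −log10 p-values of 9.02 and 9.10 at 6 h and 9.02 and 9.0 at 0 h. As a check of the labelled cell type, an H3K27ac peak lay within 1 kb of a gene end at 7 of 10 granulosa markers, among them Foxl2, Amh, Amhr2 and Inha. The same held for 1 of 5 theca markers (Cyp17a1), 1 of 7 oocyte markers (Gdf9), 1 of 5 leukocyte markers (Cd68), 1 of 5 endothelial markers (Cdh5) and 47.9% of all protein-coding genes. Of the granulosa markers, Cyp19a1, Nr5a2 and Nr0b1 had no H3K27ac peak within 1 kb of a gene end.

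FSHR and LHCGR are receptors of the glycoprotein hormone family, couple to Gs and raise cyclic AMP. FSHR drives growth of the follicle, and LHCGR, which granulosa cells gain late in that growth under FSH, carries the ovulatory signal and is then lost for a time. PRLR is a cytokine receptor that signals through JAK2 and STAT5, and in rodents it keeps the corpus luteum alive and making progesterone. Fshr and Lhcgr are neighbours on chromosome 17, with 192892 bp between their spans, and both are read from the minus strand. Prlr lies on the plus strand of chromosome 15. The spans on mm10 were chr17:88984952-89200675 for Fshr, chr17:88716384-88792059 for Lhcgr and chr15:10177238-10349190 for Prlr.

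The bases upstream of the first listed start of each gene are shown because H3K27ac covered these 3 starts at 0 h. By contrast, a GR locus overlapped the promoter window of Lhcgr alone, downstream of its start. The sequences are from RefSeq on build GRCm38.p6 (mm10) and end at the gene start, or for Lhcgr at the outer edge of the gene span, 45 bases before the start. They are written 5′ to 3′ on the strand of the gene, with matches to the motifs searched in capitals.
Fshr, chr17:89200676-89200925, minus strand: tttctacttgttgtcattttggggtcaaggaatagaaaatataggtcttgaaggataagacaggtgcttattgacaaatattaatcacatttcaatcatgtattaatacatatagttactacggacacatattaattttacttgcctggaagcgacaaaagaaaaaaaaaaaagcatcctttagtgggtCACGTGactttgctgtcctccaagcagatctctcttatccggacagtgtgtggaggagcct
Lhcgr, chr17:88792060-88792264, minus strand: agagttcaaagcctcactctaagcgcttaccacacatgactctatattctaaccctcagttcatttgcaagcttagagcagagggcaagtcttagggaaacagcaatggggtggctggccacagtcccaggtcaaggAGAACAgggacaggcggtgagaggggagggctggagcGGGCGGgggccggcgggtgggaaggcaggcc
Prlr, first of 3 listed starts, chr15:10176988-10177237, plus strand: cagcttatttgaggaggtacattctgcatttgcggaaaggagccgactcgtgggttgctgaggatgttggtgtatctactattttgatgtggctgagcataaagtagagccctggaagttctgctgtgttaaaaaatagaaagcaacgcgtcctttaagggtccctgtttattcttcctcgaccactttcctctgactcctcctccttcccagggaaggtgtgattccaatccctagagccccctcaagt

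Both strands of the 250 bases before each start were searched for the letters of 8 kinds of site. These were TGTTCT for a GR binding site arm, CACGTG for an E-box, TGACG for part of a cyclic AMP response element, AGATAA or otherwise TGATAA for a GATA site, AAGGTCA for the site of SF-1 and LRH-1, TGANTCA for AP-1, TATAAA for a TATA box and GGGCGG for a GC box. Fshr held 1 E-box, from base −61, letters that 6.63% of 21263 promoters hold. Lhcgr held 1 such GR arm on the opposite strand, read as AGAACA from base −113 (13.7% of promoters hold these letters). It also held 4 GC boxes from bases −76, −42, −25 and −12, of which the sequence above shows the outermost, and 42.6% of promoters hold a GC box. The first start of Prlr held none of these letters. Its second start held a GR arm from base −12 and TGACG from base −230 (20.2% of promoters), and its last start held the AP-1 letters from base −20 (6.13%). The bases shown for Fshr were 36.8% G or C, those for Lhcgr 58.5% and those for Prlr 48.0%, against a median of 55.6% over all promoters. A match is a run of letters and no measure of binding.

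Over the 3 windows, 10 and 10 GR peaks were called at 6 h, against 3 and 8 at 0 h. The means were 10 ± 0 at 6 h and 5.5 ± 3.54 at 0 h (SD over 2 libraries each). Both 6 h libraries thus exceeded both 0 h libraries. The difference of 4.5 peaks had a two-sided exact permutation p of 0.333, the smallest possible with 2 against 2 libraries. It was 2 without 0 h replicate 1 and 7 without 0 h replicate 2, and the 0 h library with fewer peaks here was the one with the longer list.

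Taken gene by gene, Prlr had 5 and 5 peaks at 6 h, against 1 and 3 at 0 h (exact permutation p = 0.333). It was the 1 gene of the 3 with more peaks in each 6 h library than in either 0 h library, as were 10.9% of all protein-coding genes. Lhcgr had 3 and 3 peaks at 6 h, against 1 and 3 at 0 h. Fshr had 2 and 2 at 6 h, against 1 and 2 at 0 h. For both chromosome 17 genes the times overlapped (exact permutation p = 1 each). At 6 h the order of the genes was Prlr, Lhcgr, Fshr in both libraries, while at 0 h the ranges of the genes overlapped. The windows differ in length, 272 kb for Prlr, 176 kb for Lhcgr and 316 kb for Fshr. Fewer loci than at Prlr (7) lay in the windows of 92.5% of protein-coding genes, fewer than at Lhcgr (4) in 75.3% and fewer than at Fshr (2) in 48.5%. Shares of genes, here and below, were not matched for gene length.

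**Figure D1:**
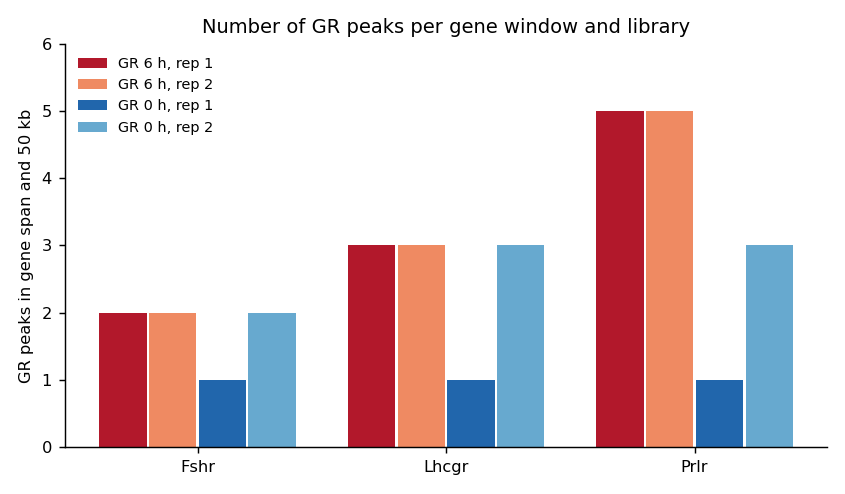
Number of GR peaks (vertical axis) in the span of each gene with 50 kb to each side, 1 bar per library (6 h libraries left, 0 h libraries right). Prlr had 5 and 5 peaks at 6 h against 1 and 3 at 0 h, and 0 h replicate 1 had 1 peak at each gene.

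Peaks of the 4 lists that shared 1 bp or more were merged into loci. Of the 13 loci, 4 were called only at 6 h, that is, in both libraries of 6 h but none of 0 h, as were 15.1% of all GR loci. Another was called only at 0 h, in both libraries of that time but none of 6 h (4.15% of all loci). All 4 libraries called 2 (27% of all loci), and the remaining 6 were called in other sets of libraries (53.8%). The loci only at 6 h were 3 at Prlr and 1 at Lhcgr, the locus only at 0 h was at Lhcgr, and the loci in all 4 libraries were 1 each at Fshr and Prlr. None of the 3 genes had loci of all 3 classes, as 1.11% of protein-coding genes did. The classes rest on single libraries. Without 0 h replicate 1, loci in all remaining libraries numbered 5 and loci only at 0 h 2, and without 0 h replicate 2, loci only at 6 h numbered 7.

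**Figure D2:**
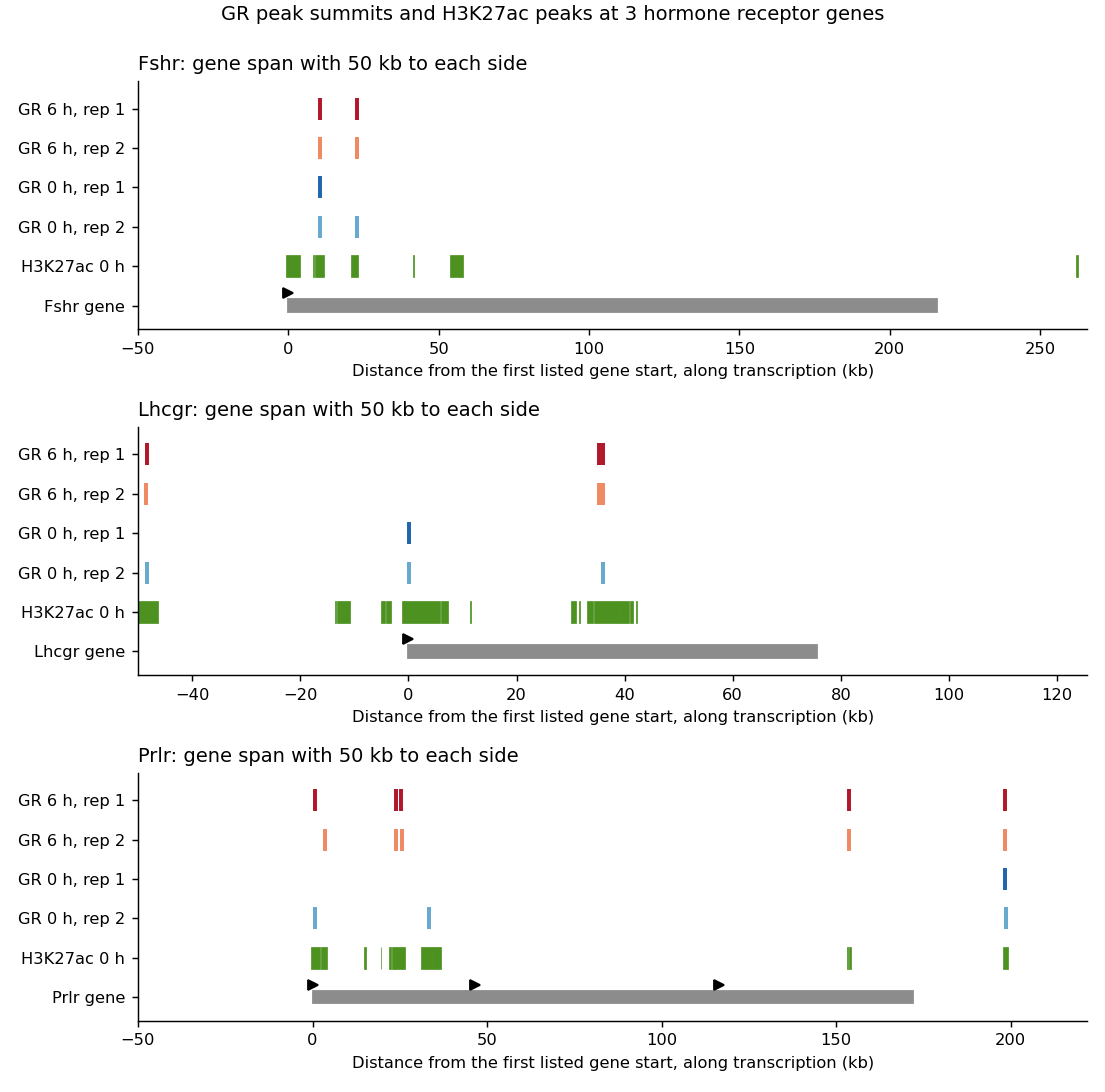
Positions of GR summits in each library and of H3K27ac peaks (green, to scale) along the windows of the 3 genes. The horizontal axis is the distance in kb from the first listed gene start, the grey bar is the gene span and arrowheads are listed starts. GR marks are drawn wider than the peaks. The pair of loci only at 6 h in Prlr at 24 to 25 kb has no mark in either 0 h library, and the mark beside the Lhcgr start is seen at 0 h.

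The strongest GR site of the 3 genes lay inside Fshr (chr17:89189691-89190337). Its summits fell 10555 to 10634 bp downstream of the gene start, within 79 bp of each other in the 4 libraries. The fold enrichment, the authors' ratio of a peak over the background their peak caller estimated, was 24.0 and 23.8 at 6 h and 27.3 and 27.8 at 0 h. By the authors' p-value the peak stood 223rd and 119th in the 6 h lists and 39th and 33rd in the 0 h lists. It was thus among the strongest 1.51% and 1.12% of peaks at 6 h and 0.386% and 0.339% at 0 h. These values rank peaks within 1 list, and ranks in lists of different length do not measure a change in binding.

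Fshr had 1 further locus (chr17:89177768-89178143), 22700 to 22770 bp downstream of its start. It was weaker, with 6.82-fold and 5.95-fold enrichment at 6 h and 5.66-fold in 0 h replicate 2, and 0 h replicate 1 did not call it. No GR peak lay at the Fshr start. The nearest locus began 10338 bp away, although an H3K27ac peak of 4426 bp covered the start and the E-box shown above. Among promoter windows of protein-coding genes (250 bases before to 50 after a start), 44.5% overlapped an H3K27ac peak and 38.0% a GR locus.

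Both Fshr loci lay in H3K27ac peaks, of 3063 and 2409 bp. The Fshr window of 316 kb held 7 such peaks, which covered 4.85% of it. Of these, 6 lay in the part of the gene within 57944 bp of the start or over the start itself, and 1 lay beyond the far end of the gene. The remaining length of the gene held neither H3K27ac nor GR peaks.

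At Lhcgr, a GR locus lay just inside the gene start before hCG. The locus only at 0 h (chr17:88791761-88792004) ended 10 bp inside the listed start, with summits 99 to 133 bp downstream of it, and overlapped the promoter window by 40 bp. Neither 6 h list held a peak there, and the fold enrichment was 8.08 and 6.80 in the 0 h lists. These peaks stood at 52.6% and 76.5% from the top of their lists. Only 0.917% of promoter windows overlapped a locus only at 0 h. The locus lay in the widest H3K27ac peak of the 3 genes, 7013 bp, which ran from −1191 to 5821 bp of the start and covered the GC boxes and the GR arm.

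A pair of loci lay side by side deeper in Lhcgr, with summits 35245 to 36062 bp from the start. The first (chr17:88756403-88757084) was called only at 6 h, with fold enrichments of 12.3 and 9.74, at 13.6% and 15.8% from the top of their lists. The second (chr17:88755800-88756201) began beyond a gap of 201 bp. It had 9.55 and 6.21 at 6 h and 7.17 in 0 h replicate 2. Merged across 500 bp the pair became a single locus that 0 h replicate 2 had also called, and Lhcgr then had no locus only at 6 h. Both lay in an H3K27ac peak of 4844 bp.

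The last Lhcgr locus (chr17:88840084-88840616) was 48025 bp outside the gene span on the upstream side, towards Fshr, and overlapped no gene. Its fold enrichments were 10.7 and 10.1 at 6 h and 9.23 in 0 h replicate 2, and an H3K27ac peak of 3897 bp covered it. Lhcgr had the most acetylated window of the 3, with 16 H3K27ac peaks over 14.6% of its 176 kb. Fewer such peaks lay in the windows of 97.4% of protein-coding genes. GR loci overlapped 3 of the 16.

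Prlr had its 3 loci only at 6 h inside the gene. The strongest (chr15:10201032-10201376) had fold enrichments of 14.2 and 11.9, with summits 7 bp apart, 23942 and 23949 bp from the first start. The next (chr15:10202516-10202894) lay 1139 bp further, with 7.08 and 10.4. Both overlapped the long non-coding RNA gene Gm41268, which lies within Prlr, and both lay in the same H3K27ac peak of 2993 bp. No 0 h library called either. The gene table used here gives no exons, so introns and exons are not told apart.

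The remaining Prlr locus only at 6 h (chr15:10330675-10330957) lay 153558 to 153604 bp from the first start. It had fold enrichments of 7.99 and 7.34 and stood at 61.5% and 56.9% from the top of the lists by p-value. It overlapped an H3K27ac peak of 505 bp by 37 bp, and both summits fell in the gap between this peak and another of 394 bp. With 3 such loci Prlr was among the 1.48% of protein-coding genes that had at least 3. This share was not matched for gene length, and the Prlr span is 171953 bp.

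The Prlr locus in all 4 libraries (chr15:10375443-10375938) lay 26253 bp beyond the far end of Prlr, inside the neighbouring gene Agxt2. Its fold enrichments were 11.1 and 11.3 at 6 h and 7.25 and 8.60 at 0 h. It stood at 14.4% and 8.87% from the top of the 6 h lists and at 33.8% and 27.4% from the top of the 0 h lists. Position alone does not assign it to Prlr rather than Agxt2.

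The other 3 Prlr loci were called in 1 or 2 libraries. The locus nearest to the first start (chr15:10177775-10178059, summits 574 and 609 bp downstream) had fold enrichments of 5.35 in 6 h replicate 1 and 6.83 in 0 h replicate 2. The peak of 6 h replicate 1 stood at 97.9% from the top of its list, close to the authors' limit, and that of 0 h replicate 2 at 80.4%. Another (chr15:10180824-10181079) had 6.00 in 6 h replicate 2 alone, at 56.5% from the top of its list. The last (chr15:10210387-10210586) had 5.84 in 0 h replicate 2 alone, at 96.5%. An H3K27ac peak of 2636 bp covered the first start. The other listed starts of Prlr, at 10223906 and 10293651, had no H3K27ac peak nearer than 9891 and 36556 bp and no GR locus nearer than 13320 and 37024 bp.

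**Figure D3:**
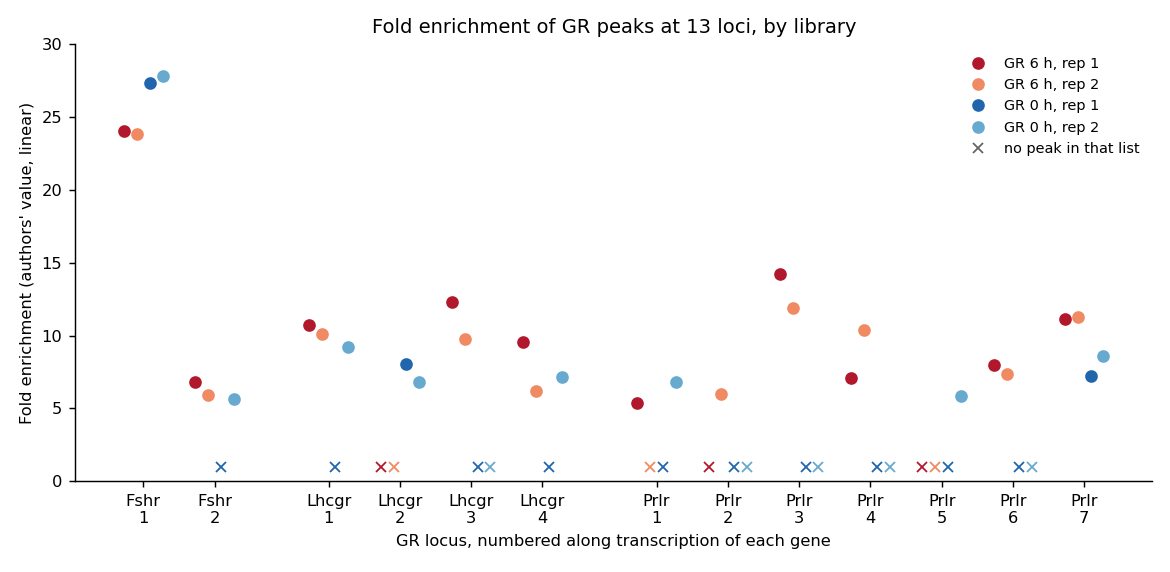
Fold enrichment given by the authors (vertical axis, linear) for each of the 13 loci, 1 point per library that called a peak. Crosses near the bottom mark libraries with no peak and are not values. Fshr locus 1 stands between 23.8 and 27.8, and every other point lies between 5.35 and 14.2.

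All 13 loci overlapped an H3K27ac peak of 0 h, and 29 of their 31 summits fell inside such a peak, the exceptions being those of the Prlr locus farthest inside the gene. Over all GR loci 74.4% overlapped the mark. By class, all 4 receptor-gene loci only at 6 h overlapped it, against 39.3% of all such loci. The locus only at 0 h did so as well (91.3% of all such loci), as did both loci in all 4 libraries (98.4%) and the 6 loci of other sets (70.8%). The mark was mapped in 1 library and before hCG, so it says nothing of acetylation at 6 h. No test was made of these shares, and they were not matched for the number of H3K27ac peaks in a window. Fewer such peaks than at Lhcgr lay in the windows of 97.4% of protein-coding genes, than at Prlr in 94.1% and than at Fshr in 75.0%. Of the 4 loci only at 6 h, the Prlr locus farthest inside the gene overlapped the mark by 37 bp. Another 2 of them, also of Prlr, lay in the same H3K27ac peak. In the reverse direction, 12 of the 36 H3K27ac peaks in the windows overlapped a GR locus. The mark without a GR peak included 5 peaks between −13662 and −3290 bp of the Lhcgr start and a peak of 4274 bp inside Fshr.

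Genes with the same profile of peak numbers were sought by Bray-Curtis similarity of the 5 numbers of peaks per window (6 h, 0 h and H3K27ac libraries), as a description. For Fshr, Tpd52, Kctd10 and Angptl8 were named of 5 genes with identical numbers. For Lhcgr the most similar were Wbp2 (0.963), Tmem186 (0.963) and Cyp2s1 (0.962, named of 2 genes with this value). For Prlr they were Gstm1 and Gstm4 (0.981 each) and Notch2 (0.963, named of 2 genes with this value). Gstm1 had 5 and 5 GR peaks at 6 h and 1 and 3 at 0 h, as Prlr did. Gstm4 had the same numbers as Gstm1 and also lies on chromosome 3, and whether their windows share peaks was not examined.

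The other genes of these receptors' pathways were described with 5 lists of 75 genes in all, each found in the gene table. Of them 27 had a locus only at 6 h in span and 50 kb, against 16.5% of all protein-coding genes, and 10 had a locus only at 0 h (6.78% of all genes). Loci in all 4 libraries lay near 51 (45.5% of all genes), and any locus near 71 (68.8% of all genes). An H3K27ac peak lay in the window of 72 of the 75, against 75.4% of all genes. Among all genes with such a peak, 21.1% had a locus only at 6 h, 8.98% had 1 only at 0 h, 60.2% had 1 in all 4 libraries and 89.6% had any locus. No set test was made. The values given below for a gene and class are those of the locus nearest to the gene, which may have others of that class.

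Among relatives of the receptors, loci only at 6 h lay at 2 of 7 glycoprotein hormone receptor relatives and at 3 of 8 cytokine receptor relatives, and neither list had a locus only at 0 h. Gnrhr, the receptor of gonadotropin-releasing hormone, was counted in the first list but is not of the glycoprotein hormone receptor family. Its only such locus lay over the gene, with fold enrichments of 18.6 and 12.7. Lgr4, a receptor of R-spondins, had 3, the nearest inside the gene with 15.3 and 11.6. Lepr, the leptin receptor, had 2, the nearer at 30142 bp with 23.0 and 26.9. Il6st, the shared receptor chain gp130, had 1 at 34724 bp with 13.6 and 13.0, and Lifr, the receptor of leukaemia inhibitory factor, 1 at 46828 bp with 8.34 and 7.45. Loci in all 4 libraries lay at 3 of 7 (Lgr4, Gnrhr and Tshr, the thyrotropin receptor) and 4 of 8 (among them Il6st, Lifr and Epor). Tshr, the nearest relative of both gonadotropin receptors, had 2 of these and none only at 6 h. Ghr, the growth hormone receptor and a close relative of Prlr, had 1 locus, of another set of libraries.

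Of 31 genes of gonadotropin receptor signalling, 12 had a locus only at 6 h and 3 had 1 only at 0 h, while 21 had 1 in all 4 libraries. Those with the nearest loci only at 6 h were Arrb1, an arrestin that silences activated receptors (14.6 and 16.1), Adcy9, an adenylyl cyclase (13.9 and 15.4), Prkacb, a catalytic subunit of protein kinase A (10.5 and 10.2), and Atf1, a transcription factor of the CREB family (12.7 and 10.4). Each overlapped its gene. Loci only at 0 h lay at Pde4b, which breaks down cyclic AMP (6.01 and 7.29), Prkar2b, a regulatory subunit of protein kinase A (7.31 and 6.67), and Adcy9 (3.85 and 4.85). Prkar2b had 5 of them among 28 loci. Loci in all 4 libraries overlapped Rgs2, Appl1, Prkar1a and Gnai2, with fold enrichments from 7.31 to 13.2 at 6 h and from 7.32 to 15.1 at 0 h.

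Of 14 genes of prolactin receptor signalling, loci only at 6 h lay at 5, only at 0 h at 2 and in all 4 libraries at 11. A locus only at 6 h overlapped Stat5b (chr11:100842931-100843355, 9.80 and 5.69) and lay 15996 bp from its neighbour Stat5a. The window of Stat3 held this locus too, so it counted for Stat5a, Stat5b and Stat3, which are all transcription factors. None of these genes had another locus only at 6 h. Fyn, a Src-family kinase, had 4, the nearest over the gene with 14.1 and 14.1. Socs2, a feedback inhibitor of cytokine signalling, had 3, the nearest at 21298 bp with 10.2 and 7.14. Loci only at 0 h lay 28542 bp from Ptpn11 (7.83 and 11.7) and 29913 bp from Stat3 (6.42 and 6.32). Loci in all 4 libraries overlapped Fyn, Socs1, Socs2 and Socs3, and that of Socs2 had 20.2 and 14.3 at 6 h and 20.1 and 21.8 at 0 h. Jak2, the kinase bound to PRLR, had 2 loci, both of other sets of libraries.

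Of 15 transcription factors known to act on these receptor genes, loci only at 6 h lay at 5, only at 0 h at 5 and in all 4 libraries at 12. Loci only at 0 h overlapped Gata4 (8.43 and 8.65), Nr5a1, which encodes SF-1 (8.32 and 13.6), Esr2, oestrogen receptor beta (5.89 and 6.60), and Nr5a2, which encodes LRH-1 (6.42 and 5.63). Loci only at 6 h overlapped Nr5a2 (7.05 and 5.74) and lay 7404 bp from Cebpb (8.52 and 5.98), 23649 bp from Sp3 (6.56 and 4.84) and 29004 bp from Sp1 (8.26 and 6.28). The window of Nr5a2 held 46 loci, of which 43 were of other sets of libraries and 1 of each class. Loci in all 4 libraries overlapped Cebpb, Gata4, Gata6 and Sp3, and that of Cebpb had 19.3 and 11.9 at 6 h and 14.8 and 15.1 at 0 h.

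**Figure D4:**
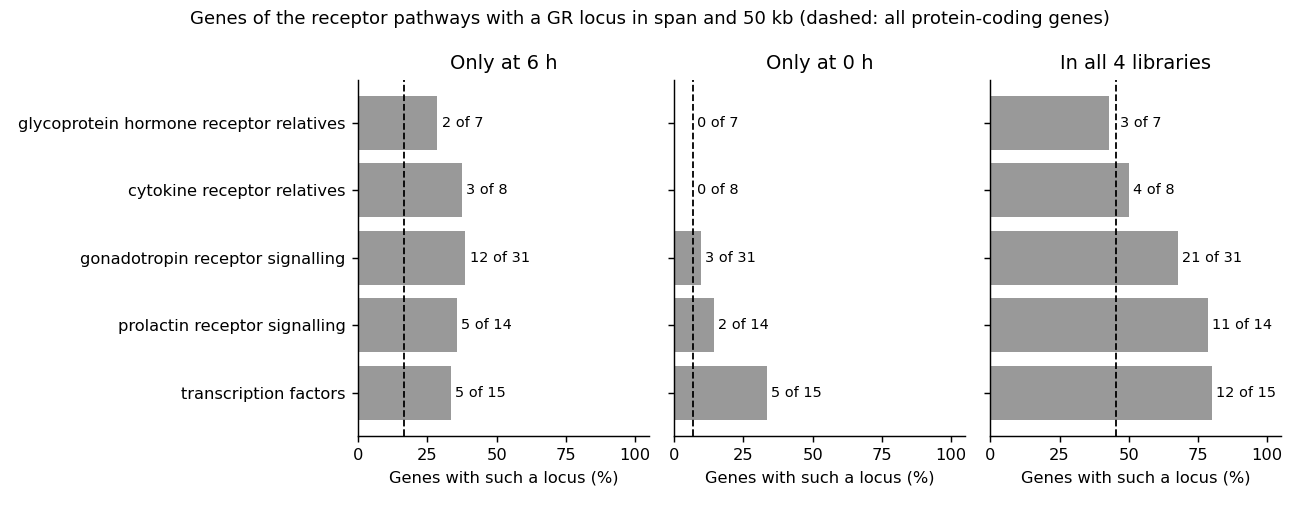
Share of the genes of each list (horizontal axis, percent) with a GR locus of each class (6 h, 0 h, all libraries) in span and 50 kb, with the number of genes beside each bar. The dashed line is the share of all protein-coding genes, 16.5%, 6.78% and 45.5% in the 3 panels, and the transcription factor list had 5 of 15 genes with a locus only at 0 h.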

How the data were processed

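Per the submitters' processing notes, Bowtie2 2.4.5 aligned the reads to mm10 and MACS2 called the peaks. The MACS2 version and its control: not given in the sources used here. The authors deposited 1 GR list per library, and each library was taken as 1 unit in the tests. Each deposited GR peak has its summit, its fold enrichment over background (a ratio), −log10 values of p and q, and a score equal to the whole part of 10 times −log10 p. The deposited H3K27ac list holds positions only.

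From these, peaks on the autosomes and sex chromosomes were merged into loci where they shared 1 bp, with Python 3.11.15, numpy 2.4.6 and pandas 2.3.3 (figures with matplotlib 3.10.9). Merging was checked on simulated lists whose loci lay far apart, so the check does not cover loci as close as the Lhcgr pair. Gene spans, starts and upstream sequences came from RefSeq tables of GRCm38.p6, which give no exons, and all 3 genes matched. Sequences at the GR summits were not used here. Only peak numbers were tested, with exact permutation tests over libraries.

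The members and lists were chosen with earlier results of these data known. Each locus of the 3 genes is described. Of other pathway genes, those named are the 4 per list and class with the locus nearest to the gene span, ties by the mean rank of the authors' p-value, and 1 gene this rule names is not reported here. Ghr and Jak2 and the class counts of single pathway genes were added after their values were seen. Alternatives were other windows, peak limits and merging rules, and leaving out each library.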

Additional observations from a re-analysis of the deposited data

How the results depend on the processing

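The 3 windows held 13 loci, 11 with the gene spans alone or with 10 kb to each side, 16 with 100 kb to each side and 8 with the stronger 50% of each list. Of these 8, each overlapped H3K27ac. Loci in all 4 libraries numbered 1 with the gene spans alone and 1 with 10 kb to each side, since that of Prlr lies outside the gene. They ranged from 2 to 5 with 1 library left out. Loci only at 0 h numbered 0 with the stronger 50% of each list, and 1 to 2 with 1 library left out. Loci only at 6 h ranged from 4 to 7 with 1 library left out. They also numbered 4 with the stronger 50% of each list, but these then included the second Fshr locus in place of the Prlr locus farthest inside the gene. The pathway genes with a locus in all 4 libraries numbered 33 with the gene spans alone and 25 with the stronger 50% of each list, against 51. The other counts of pathway genes were not recomputed. The difference in peak number was positive in each setting and ranged from 2 to 7 with 1 library left out. Equal replicate numbers carry no stated pairing. With a replicate block, the differences within numbers were 7 and 2, with a mean of 4.5 and an exact sign-flip p of 0.5, the smallest possible with 2 pairs. Unknown read depth limits every statement on a missing peak.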

Other observations

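The interval between the windows of Lhcgr and Fshr (chr17:88842060-88934951, 92892 bp) held 3 further GR loci and 7 H3K27ac peaks. A locus in all 4 libraries (chr17:88864424-88865335) had fold enrichments of 10.7 and 8.20 at 6 h and 8.85 and 8.11 at 0 h and overlapped H3K27ac. A locus only at 6 h (chr17:88892204-88892716) had 9.98 and 12.5 and lay outside H3K27ac, unlike all 13 loci of the windows. Another (chr17:88885567-88885877) was called in 6 h replicate 1 alone, with 7.85. With 50 kb as the limit none of them counts for either gonadotropin receptor gene.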
